A study of Mus musculus with 8 samples.

Results

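The dystrophin glycoprotein complex was described through 8 genes: Lama2, Dag1, Itga7, Dmd, Utrn, Sgca, Sgcb and Sgcd. They were chosen by their GENCODE M21 symbol and found by Ensembl identifier in the tables, among 141239 features counted in all. The 8 genes passed the filter on low counts, as did 26717 features in total. The samples were hearts of 2-week-old mice of mixed strain. Of the 8 libraries 5 were labelled Lmna-/-:AAV9 Lmna WT (replicates 1 to 5), hearts of knockout mice that received wild-type Lmna by adeno-associated virus of serotype 9 (AAV9), called AAV9-Lmna below. They were set against 3 libraries labelled Lmna-/- (replicates 6, 7 and 8), hearts of Lmna knockout mice for which no vector is named, here called untreated. Both groups thus carry the knockout of Lmna, which encodes the nuclear lamins A and C. No heart with intact Lmna and no heart given another vector was analysed here. The sources used here do not state the promoter, dose or route of the vector or the sex of the mice.

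The complex ties the actin cytoskeleton inside a heart muscle cell to the basement membrane outside it. Dystrophin binds actin and the membrane protein dystroglycan, dystroglycan carries sugar chains that bind laminin, and the sarcoglycans stabilise the assembly in the membrane. Integrin alpha 7 beta 1 is another laminin receptor of muscle, and utrophin is a relative of dystrophin. Loss of several of these proteins causes muscular dystrophy with cardiomyopathy in mice and people.

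In AAV9-Lmna hearts Dag1, the gene of dystroglycan, was lower and Itga7, the gene of integrin alpha 7, was higher, so the genes of both laminin receptors moved in opposite directions. Dag1 averaged 518 ± 19.0 CPM (counts scaled to an equal library size, SD, n = 5) in AAV9-Lmna hearts and 789 ± 116 CPM (SD, n = 3) in untreated hearts. Itga7 averaged 366 ± 36.1 CPM (SD, n = 5) in AAV9-Lmna hearts and 236 ± 39.1 CPM (SD, n = 3) in untreated hearts. The other 6 genes, those of laminin alpha 2, dystrophin, utrophin and the 3 sarcoglycans, did not pass the test, the quasi-likelihood test of edgeR with Benjamini-Hochberg adjustment over 26717 features at 0.05. Thus 2 of 8 genes, or 25.0%, were called, 1 in each direction, against a background of 25.7% of all features called in this comparison, 2843 higher and 4015 lower. That share is near the background and is no result about the 8 genes as a group. The balance differs among coding genes, to which all 8 belong, with 18.4% called higher and 6.07% lower. With Ensembl genes alone 3 of the 8 were called, against 12.9% of features, after the length and GC correction described below 2 of 8 against 7.76%, and against untreated replicate 7 alone 2 of 8 against 7.17%. In this last fit the 2 genes were Dag1 and Sgca, and Itga7 was not called.

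Where the transcripts start is shown for 3 of the genes, to set Dag1, which fell, beside Sgca and Dmd, which were not called. RefSeq promoters (GRCm38.p6, 250 bases before to 50 after a start) matched 7 of the 8 genes, and in these 3 a RefSeq start was also the outermost start in GENCODE. The gene without a match was Itga7, the member that rose, so its promoter is not compared. Each is printed 5′ to 3′ on the strand of its gene. Capitals mark GGGCGG (the GC box bound by SP and KLF factors), CAGCTG (an E box) and TATAAA, each searched on both strands.
Dag1, chr9:108263909-108264208, minus strand: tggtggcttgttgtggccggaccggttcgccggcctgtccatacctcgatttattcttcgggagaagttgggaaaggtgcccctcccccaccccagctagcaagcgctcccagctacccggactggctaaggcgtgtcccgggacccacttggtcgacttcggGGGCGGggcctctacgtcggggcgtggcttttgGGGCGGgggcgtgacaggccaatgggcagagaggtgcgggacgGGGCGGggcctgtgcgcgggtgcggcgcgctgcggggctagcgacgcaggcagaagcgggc
Sgca, chr11:94976278-94976577, minus strand: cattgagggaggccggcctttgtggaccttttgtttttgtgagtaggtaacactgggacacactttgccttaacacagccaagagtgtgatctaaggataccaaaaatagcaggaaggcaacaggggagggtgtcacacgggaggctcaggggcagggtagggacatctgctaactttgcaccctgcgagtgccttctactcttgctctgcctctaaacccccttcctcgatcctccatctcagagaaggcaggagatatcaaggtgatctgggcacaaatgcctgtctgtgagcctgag
Dmd, chrX:82948620-82948919, plus strand: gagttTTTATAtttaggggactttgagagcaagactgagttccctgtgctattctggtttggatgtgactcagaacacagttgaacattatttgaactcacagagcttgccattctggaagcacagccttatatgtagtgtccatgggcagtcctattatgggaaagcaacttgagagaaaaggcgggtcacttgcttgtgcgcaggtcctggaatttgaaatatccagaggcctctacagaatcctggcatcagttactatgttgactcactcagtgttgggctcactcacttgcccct
The Dag1 window held 3 copies of GGGCGG and 30 CpG dinucleotides, with 69.7% G and C. The Sgca window held none of the 3 motifs, 4 CpG dinucleotides and 52.7% G and C. The Dmd window held 1 TATAAA on the opposite strand, read here as TTTATA, 2 CpG dinucleotides and 45.7% G and C. Over all 32851 promoters of that length, the median was 7 CpG dinucleotides and 52.7% G and C, and GGGCGG occurred in 35.7%, TATAAA in 13.6% and CAGCTG in 16.3%. GGGCGG is not particular to the gene that fell. Among windows not printed, the other Dag1 window (108263766 to 108264065) held 4 copies and an inner Dmd window (85048045 to 85048344) held 3, with 14 CpG dinucleotides and 62.7% G and C. The Sgcb window held 1 copy and 24 CpG dinucleotides, those of Sgcd and Lama2 held 1 copy each, and that of Utrn none. These matches describe the letters of the windows and no binding was measured.

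The libraries differed in ways that touch every value below. Reads on annotated features numbered 21576949 to 26492443 in AAV9-Lmna and 21439956 to 24021970 in untreated libraries. Reads outside features made up 12.4% ± 0.364 (SD, n = 5) in AAV9-Lmna and 19.9% ± 4.19 (SD, n = 3) in untreated libraries (exact two-sided permutation p = 0.0179, the smallest that 56 splits allow, adjusted p = 0.0179 over 3 measures). The slope of log2 level on log2 transcript length was negative in each AAV9-Lmna library, at -0.102 to -0.0608, and positive in each untreated library, at 0.0766 to 0.171. Lmna itself, as a check of the labels, held 227 to 747 CPM in AAV9-Lmna and 32.3 to 68.7 CPM in untreated libraries. Atrial marker genes summed to 35.6 to 43.2 CPM in AAV9-Lmna libraries and to 43.2, 49.1 and 1000 CPM in untreated replicates 6, 7 and 8. Of the 6 atrial markers tested 4 were called lower, against 6.07% of coding genes. Endothelial markers summed to 2012 to 2499 CPM in AAV9-Lmna and 1278 to 2086 CPM in untreated libraries. Of these markers 3 of 8 rose, against 18.4% of coding genes. The parts of read placement, length and cell makeup in the results were not tested, except where a corrected value is given.

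**Figure D1:**
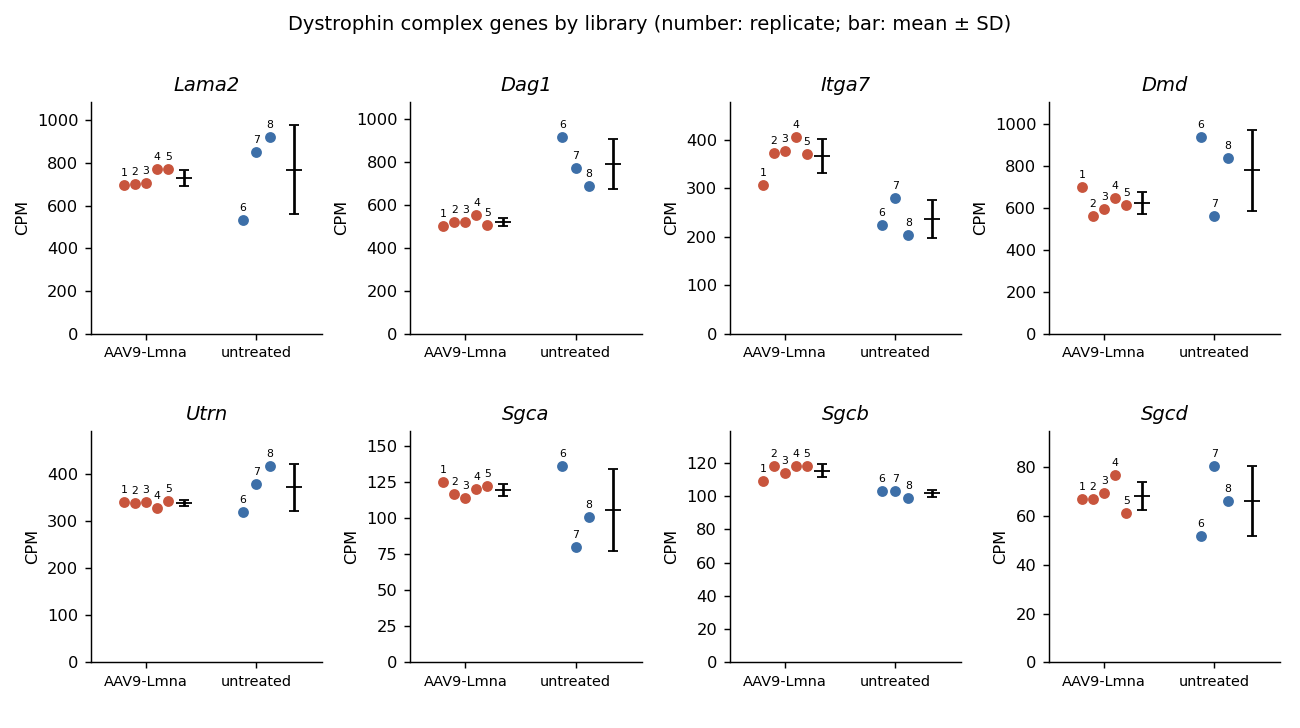
Counts in CPM (y axis from 0) of the 8 genes in each library, with AAV9-Lmna hearts (red, replicates 1 to 5) left of untreated hearts (blue, replicates 6 to 8) and mean ± SD beside each group. The groups are apart for Dag1, Itga7 and, by a small distance, Sgcb, and the untreated points are spread widely for Lama2, Dmd and Sgca.

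The ligand came first in the order of roles. Lama2 (ENSMUSG00000019899, GRCm38 chromosome 10, 26980036 to 27619758, minus strand) encodes the alpha 2 chain of the main laminin of the muscle basement membrane. It held 695, 702, 705, 770 and 770 CPM in AAV9-Lmna replicates 1 to 5, against 531, 852 and 920 CPM in untreated replicates 6, 7 and 8. The AAV9-Lmna values lay inside the range of the untreated ones, of which replicate 6 was the lowest of all 8. The log2 fold change was -0.08 (standard error 0.15, edgeR adjusted p = 0.729). Of its annotated exon bases 3.86% are shared with the antisense gene Gm48084, and the reads were counted without strand. Markers of fibroblasts, 8 genes of which 8 were tested and 0 called, summed to 4565 to 7459 CPM in AAV9-Lmna libraries. They summed to 1694, 6225 and 7026 CPM in untreated replicates 6, 7 and 8, the same order as Lama2. That order is not particular to fibroblasts. Summed markers of atrial cells, smooth muscle and pericytes, endothelium, Schwann cells and neurons, and epicardium had it too. Whether fibroblast content has a part in the Lama2 values was not tested, and in RNA of a tissue fewer cells of a type and less RNA per cell cannot be told apart.

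Dag1 (ENSMUSG00000039952, chromosome 9, 108204634 to 108263958, minus strand) encodes both parts of dystroglycan, the outer alpha subunit that binds laminin and the inner beta subunit that binds dystrophin. It held 501, 517, 517, 550 and 506 CPM in AAV9-Lmna replicates 1 to 5, against 913, 770 and 684 CPM in untreated replicates 6, 7 and 8. Each untreated library lay above each AAV9-Lmna library. Dag1 fell, with a log2 fold change of -0.61 or 0.657-fold (standard error 0.10, edgeR adjusted p = 0.00392). After each library was corrected for transcript length and GC content the log2 fold change was -0.66 (standard error 0.13, edgeR adjusted p = 0.0166). Untreated replicate 6 had the steepest length slope and the most reads outside features, and replicate 8 the highest atrial markers, so each gene was also compared with untreated replicate 7 alone. Replicate 7 was not free of these differences. Its length slope was 0.0766, and its atrial markers summed to 49.1 CPM, against at most 43.2 CPM in AAV9-Lmna libraries. The fit against replicate 7 alone takes its spread from the AAV9-Lmna libraries only. Untreated libraries varied more, for Dag1 by 14.7% of the mean (SD) against 3.66% in AAV9-Lmna libraries. Calls in that fit may therefore rest on too small a spread and give no support. The log2 fold change of Dag1 was -0.56 there.

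Itga7 (ENSMUSG00000025348, chromosome 10, 128933818 to 128958282, plus strand) encodes the alpha chain that pairs with integrin beta 1 in the laminin receptor of differentiated muscle. It held 307, 372, 377, 405 and 370 CPM in AAV9-Lmna replicates 1 to 5, against 224, 280 and 204 CPM in untreated replicates 6, 7 and 8. Each AAV9-Lmna library lay above each untreated one, by the least in AAV9-Lmna replicate 1 and untreated replicate 7. Itga7 rose, with a log2 fold change of 0.63 or 1.55-fold (standard error 0.12, edgeR adjusted p = 0.00689). After the length and GC correction the log2 fold change was 0.46 (standard error 0.12, edgeR adjusted p = 0.0478). That fit covers Ensembl genes alone, and with those genes but no correction the value was already 0.44 (edgeR adjusted p = 0.0423). Against untreated replicate 7 alone the log2 fold change was 0.40 and the call was lost (edgeR adjusted p = 0.0806). Smooth muscle and pericytes also express Itga7. Their 8 markers summed to 2381 to 2838 CPM in AAV9-Lmna and 2076 to 2546 CPM in untreated libraries, with 0 of 8 called. Heart muscle markers summed to 58267 to 70489 CPM in AAV9-Lmna and 47369 to 72827 CPM in untreated libraries. Of the 8 markers 2 rose, Myl2 and Myl3, against 18.4% of coding genes. Those not called were Tnni3, Actc1 and Pln, with log2 fold changes of 0.27, 0.38 and 0.06, and Ryr2, Myh6 and Tnnt2, with -0.40, -0.09 and -0.01. The part of cell makeup in the rise of Itga7 was not tested.

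The ratio of both receptor genes within a library does not depend on how libraries are scaled. Counts of Itga7 over those of Dag1 were 0.612, 0.720, 0.729, 0.736 and 0.732 in AAV9-Lmna replicates 1 to 5, against 0.246, 0.363 and 0.299 in untreated replicates 6, 7 and 8. The lowest AAV9-Lmna ratio was well above the highest untreated one. The mean log2 ratio was -0.51 ± 0.11 (SD, n = 5) in AAV9-Lmna and -1.74 ± 0.28 (SD, n = 3) in untreated libraries, a difference of 1.24, or 2.36-fold. An exact two-sided permutation test gave p = 0.0179, the smallest that 56 splits allow, and an adjusted p of 0.0536 over the 3 ratios examined, which is not below 0.05. The CPM of Itga7 and of Dag1 each already set the groups apart, in opposite directions, so their ratio had to do so too. The test therefore adds no support to the calls of the single genes. Between corrected levels the difference was 1.11. Against untreated replicate 7 alone it was 0.95.

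**Figure D2:**
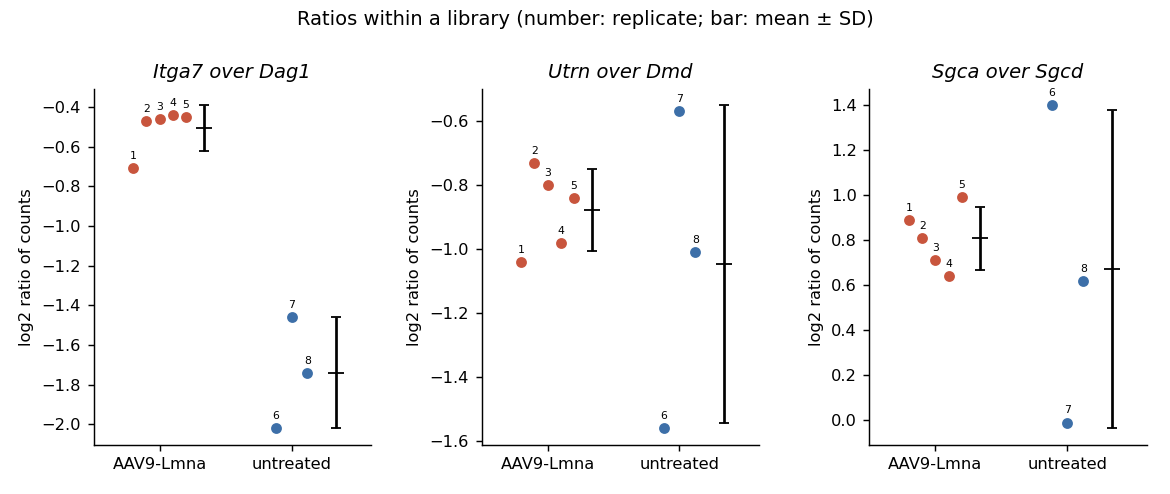
Log2 ratio of counts within each library for 3 pairs of genes, AAV9-Lmna hearts (red) left of untreated hearts (blue), with mean ± SD. Itga7 over Dag1 lies at -0.71 to -0.44 in AAV9-Lmna and -2.02 to -1.46 in untreated libraries, whereas the groups overlap for Utrn over Dmd and for Sgca over Sgcd.

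Neither dystrophin nor utrophin passed the test. Dmd (ENSMUSG00000045103, chromosome X, 82948870 to 85206141, plus strand), whose protein dystrophin joins actin to dystroglycan, held 699, 560, 592, 644 and 613 CPM in AAV9-Lmna replicates 1 to 5. In untreated replicates 6, 7 and 8 it held 935, 562 and 837 CPM. Replicates 6 and 8 lay above all AAV9-Lmna libraries and replicate 7 among them. The log2 fold change was -0.32 (standard error 0.15, edgeR adjusted p = 0.122). It became -0.50 and was called without untreated replicate 7 (edgeR adjusted p = 0.0048), was 0.16 and not called against that replicate alone (edgeR adjusted p = 0.462), and was -0.00 after the length and GC correction (edgeR adjusted p = 0.99). The summed heart muscle markers had the same order in the untreated libraries, 72827, 47369 and 63212 CPM in replicates 6, 7 and 8, and their part was not tested. Counts per gene do not tell full-length dystrophin from the shorter forms made from inner promoters of the gene.

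Dmd lies on the X chromosome and the labels give no sex. The 4 Y-linked genes Ddx3y, Eif2s3y, Kdm5d and Uty summed to 0.420 CPM in AAV9-Lmna replicate 1 and to 238 to 305 CPM in the other 7 libraries. That replicate also had the highest Dmd level of its group. The same held for Sgca, on chromosome 11, at 125 CPM, and for the summed heart muscle markers, at 70489 CPM. A top value in that replicate is thus not particular to Dmd. Lama2, Dag1, Sgcb and Itga7 were lowest of the group there, and the part of sex was not tested. Without that replicate the log2 fold change of Dmd was -0.37 (edgeR adjusted p = 0.109).

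Utrn (ENSMUSG00000019820, chromosome 10, 12382188 to 12869365, minus strand), whose protein can stand in for dystrophin in mouse muscle, held 341, 338, 341, 328 and 342 CPM in AAV9-Lmna replicates 1 to 5. It held 318, 379 and 416 CPM in untreated replicates 6, 7 and 8, on both sides of the narrow AAV9-Lmna range. The log2 fold change was -0.13 (standard error 0.10, edgeR adjusted p = 0.311), against 0.14 after the length and GC correction (edgeR adjusted p = 0.347). With Ensembl genes scaled and tested alone, without NONCODE features, it was -0.33 and called (edgeR adjusted p = 0.0371). That scaling moved the median feature by -0.19.

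Counts of Utrn over those of Dmd were 0.488, 0.604, 0.576, 0.508 and 0.558 in AAV9-Lmna replicates 1 to 5, against 0.340, 0.675 and 0.497 in untreated replicates 6, 7 and 8. The untreated libraries held both the lowest and the highest ratio. The difference in the mean log2 ratio was 0.17 (exact two-sided permutation p = 0.5, adjusted p = 0.607 over 3 ratios), and -0.09 without untreated replicate 6.

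The sarcoglycans form a subcomplex of single-pass membrane proteins beside dystroglycan. Sgca (ENSMUSG00000001508, chromosome 11, 94962791 to 94976327, minus strand), the subunit limited to striated muscle, held 125, 117, 114, 120 and 122 CPM in AAV9-Lmna replicates 1 to 5. It held 136, 79.7 and 101 CPM in untreated replicates 6, 7 and 8, with replicate 6 above and the other two below every AAV9-Lmna library. The log2 fold change was 0.17 (standard error 0.14, edgeR adjusted p = 0.374). It was 0.41 and called without untreated replicate 6 (edgeR adjusted p = 0.0216), 0.59 and called against untreated replicate 7 alone (edgeR adjusted p = 0.00514), and -0.22 and not called with length and GC corrected (edgeR adjusted p = 0.5).

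Sgcb (ENSMUSG00000029156, chromosome 5, 73632749 to 73647790, minus strand), which with delta-sarcoglycan forms the core of the subcomplex, held 109, 118, 114, 118 and 118 CPM in AAV9-Lmna replicates 1 to 5. It held 103, 103 and 99.1 CPM in untreated replicates 6, 7 and 8, so the groups did not overlap. The ranges were apart for 3 of the 8 genes (37.5%), Dag1, Itga7 and Sgcb, against 29.9% of all features. The log2 fold change of Sgcb was 0.18 (standard error 0.08, edgeR adjusted p = 0.108). It was -0.02 with Ensembl genes alone (edgeR adjusted p = 0.916) and -0.05 with the length and GC correction added (edgeR adjusted p = 0.774).

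Sgcd (ENSMUSG00000020354, chromosome 11, 46896253 to 47988969, minus strand), whose loss causes cardiomyopathy in hamsters and mice, held 67.1, 66.8, 69.6, 76.9 and 61.1 CPM in AAV9-Lmna replicates 1 to 5, against 51.8, 80.4 and 66.0 CPM in untreated replicates 6, 7 and 8. The groups overlapped, with the lowest and the highest value in untreated libraries. The log2 fold change was 0.05 (standard error 0.13, edgeR adjusted p = 0.805). Counts of Sgca over those of Sgcd ran from 1.56 to 1.99 in AAV9-Lmna libraries, against 2.63, 0.991 and 1.53 in untreated replicates 6, 7 and 8. The difference in the mean log2 ratio was 0.14 (exact two-sided permutation p = 0.607, adjusted p = 0.607 over 3 ratios), -0.20 without untreated replicate 7 and 0.82 against that replicate alone.

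**Figure D3:**
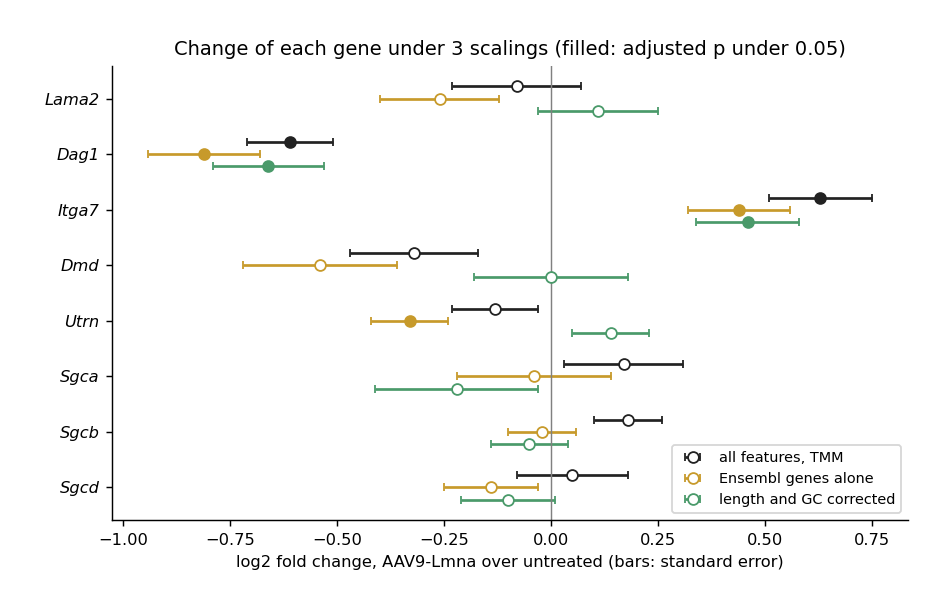
Log2 fold change of AAV9-Lmna over untreated hearts (x axis) with its standard error for the 8 genes, under all features with TMM scaling (black), Ensembl genes alone (yellow) and a length and GC correction (green), filled where the adjusted p is under 0.05. Dag1 is lower and Itga7 higher in all 3, and of the other 6 genes only Utrn is called, in 1 of the 3.

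The untreated libraries varied more than the AAV9-Lmna libraries. The coefficient of variation was smaller among AAV9-Lmna libraries for 7 of the 8 genes, the exception being Sgcb, with 3.64% in AAV9-Lmna and 2.24% in untreated libraries. Utrn varied least in AAV9-Lmna hearts, by 1.79%, against 13.4% in untreated hearts. Sgca varied by 3.54% in AAV9-Lmna and 27.0% in untreated hearts, and Lama2 by 5.25% in AAV9-Lmna and 27.1% in untreated hearts. The same held for 77.0% of all coding genes tested. Groups of 5 and 3 libraries estimate this spread with unequal precision, and the difference was not tested.

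Within the untreated group the genes followed different orders. Dmd and Sgca were highest in replicate 6 and lowest in replicate 7, Lama2 and Utrn were highest in replicate 8 and lowest in replicate 6, and Sgcd was highest in replicate 7 and lowest in replicate 6. Dag1 was highest in replicate 6 and lowest in replicate 8. These orders describe 3 libraries only.

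Levels between genes were compared as CPM per kb of the longest annotated transcript. In AAV9-Lmna hearts Dag1 and Itga7 stood level, with 91.5 ± 3.35 and 91.1 ± 8.97 CPM per kb (SD, n = 5), and their ranges overlapped. In untreated hearts Dag1 had 139 ± 20.4 and Itga7 58.7 ± 9.72 CPM per kb (SD, n = 3), and their ranges were apart. In AAV9-Lmna hearts Lama2 followed at 75.8 CPM per kb and overlapped with Itga7, then Sgca at 69.2, Dmd at 41.7, Sgcb at 30.5, Utrn at 27.3 and Sgcd at 15.3. The ranges of Lama2 and Sgca met at 72.3 CPM per kb, and from Sgca downwards no neighbours overlapped in that group. In untreated hearts Lama2 had 79.8, Sgca 61.3, Itga7 58.7 and Dmd 52.2 CPM per kb, and each of these overlapped with the next. Utrn with 30.0 and Sgcb with 26.9 overlapped too, and Sgcd was lowest with 14.8 CPM per kb. Itga7 has 8.09 kb of annotated exons in all and a longest transcript of 4.02 kb, so these levels depend on the length used. Per kb of all annotated exons Itga7 came to 45.2 CPM in AAV9-Lmna and 29.2 CPM in untreated hearts, and Dag1 to 81.5 CPM in AAV9-Lmna and 124 CPM in untreated hearts.

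Transcript length set the 8 genes apart from each other. Dmd, Utrn, Lama2 and Dag1 lie in the longest of 5 length classes of coding genes, where the median log2 fold change was -0.05 and 23.9% of 2299 genes were called. Itga7 and Sgcb lie in the third class, with a median of 0.24, Sgcd in the fourth with 0.13, and Sgca in the shortest with 0.41. When coding genes were divided into 40 bins of length, 5 of the 8 genes lay within the interquartile range of their bin and 3 did not. Dag1 had a lower log2 fold change than all but 8.01% of the 287 genes of its bin, and that of Itga7 was above 92.0% of the 287 genes of its bin. Sgca lay at 0.17, just under the lower quartile of its bin at 0.21.

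**Figure D4:**
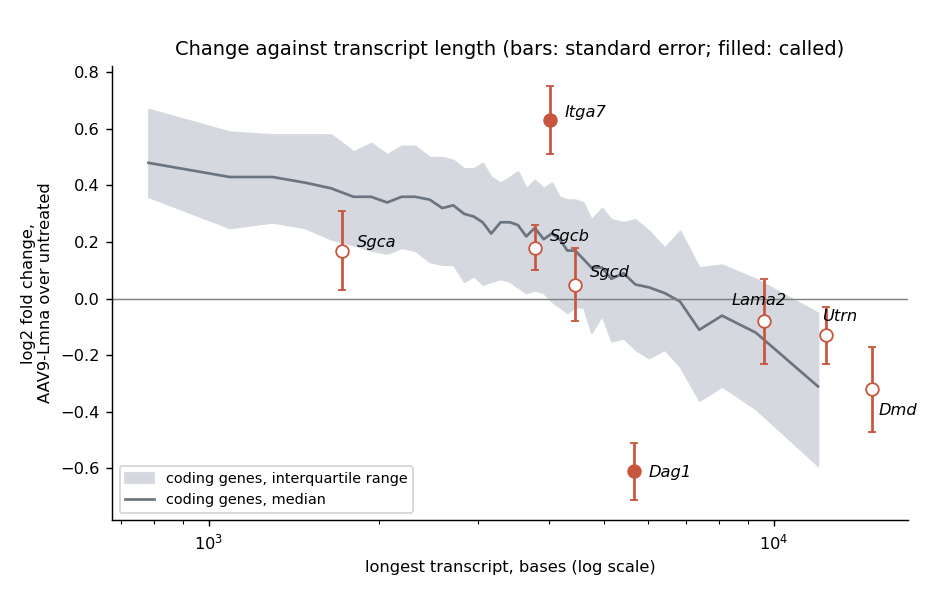
Log2 fold change of AAV9-Lmna over untreated hearts (y axis) against the longest transcript in bases (x axis, log scale), with the median and interquartile range of coding genes in 40 length bins (grey) and the 8 genes with their standard errors (red, filled where called). Coding genes slope downwards with length. Dag1 lies under and Itga7 above the band, and Dmd, Utrn and Lama2 follow its long end.

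The genes whose profile over the 8 libraries was nearest were sought for 4 members among 8883 Ensembl genes. Nearness was the root mean square difference of log2 CPM after centring each gene on its mean. The nearest to Dmd were Fhod3, a formin of the heart muscle sarcomere (0.051), Ablim1, an actin-binding protein (0.056), and Tead3, a TEAD transcription factor (0.061). The profile of Dmd itself had a root mean square of 0.255 on that scale. Nearest to Utrn were Ercc6l2 (0.056), Zhx2 (0.057) and Xpo7 (0.059), against 0.118 for Utrn itself. For Sgca they were Hdgfl2 (0.056), Pbxip1 (0.058) and Naa40 (0.065), and for Lama2 they were Adgrl3 (0.056), Dcakd (0.085) and Frmd4a (0.086). None of these 12 genes was called between the groups (edgeR adjusted p of 0.143 to 0.885). This follows from the choice, since they were picked for profiles near those of 4 members that were not called.

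Around the 8 genes stand 70 others of the pathway in 4 lists, of which 66 were tested. Of these 12 rose (18.2%) and 5 fell (7.58%), against 18.4% and 6.07% of coding genes, so the share called is close to the background of coding genes. Their median log2 fold change was 0.23, against 0.21 over coding genes. With Ensembl genes alone 4 rose and 8 fell, against 4.49% and 8.73% of coding genes. After the length and GC correction 0 rose and 4 fell, against 2.26% and 5.32% of coding genes. The corrected fit, which covers Ensembl genes alone, moved the median feature by -0.26. Ensembl genes alone without the correction already moved it by -0.19. Against untreated replicate 7 alone 5 of 67 rose and 5 fell (7.46% each), against 7.42% and 3.85% of coding genes. Without untreated replicate 7, 23 of 66 were higher (34.8%), against 29.9% of coding genes. Without untreated replicate 6, 10 of 66 were lower (15.2%), against 5.54% of coding genes. These differences in share were not tested.

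Of 15 tested genes for other subunits and partners of the complex, 1 rose and 2 fell, and the median was 0.03. Over coding genes 18.4% rose and 6.07% fell, with a median of 0.21. Ank3, ankyrin-G, which anchors dystrophin and dystroglycan in mouse muscle, held 139 to 166 CPM in AAV9-Lmna libraries, against 284, 193 and 232 CPM in untreated replicates 6, 7 and 8. It fell by 0.65 on the log2 scale (edgeR adjusted p = 0.00557) and had -0.49 after the correction, where it was not called (edgeR adjusted p = 0.0732). Against untreated replicate 7 alone it had -0.34 (edgeR adjusted p = 0.0771). Mark2, a cell polarity kinase, averaged 49.2 ± 1.58 CPM (SD, n = 5) in AAV9-Lmna and 68.7 ± 7.22 CPM (SD, n = 3) in untreated hearts. It fell by 0.48 on the log2 scale and was called lower after the correction too (edgeR adjusted p = 0.00604 and 0.00877), but not against untreated replicate 7 alone, at -0.36 (edgeR adjusted p = 0.0502). Sspn, the sarcospan gene, had a log2 fold change of 0.21 and was not called. Sgcz, Sntg1 and Nos1 did not pass the filter on low counts.

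The next list holds enzymes that build the laminin-binding sugar of dystroglycan. Of 18 tested 7 rose and 0 fell, against 18.4% and 6.07% of coding genes. The median was 0.39, against 0.21 over coding genes, and these differences were not tested. Pomk, a kinase that phosphorylates the core sugar, averaged 14.4 ± 0.422 CPM (SD, n = 5) in AAV9-Lmna and 8.06 ± 2.93 CPM (SD, n = 3) in untreated hearts. Its log2 fold change was 0.84 (standard error 0.21, edgeR adjusted p = 0.0169). Pomgnt2 and Pomt1, a glucosaminyl and a mannosyl transferase, rose by 0.71 and 0.56 on the log2 scale, and Gmppb, which makes the activated mannose, by 0.66. Pomgnt2 was not called without AAV9-Lmna replicate 2 or 5, at 0.69 and 0.65 (edgeR adjusted p = 0.0548 and 0.0562). With Ensembl genes alone 2 rose, against 4.49% of coding genes. After the length and GC correction 0 rose, against 2.26% of coding genes. The median was then 0.17, and Pomk had 0.63 (edgeR adjusted p = 0.0577). Against untreated replicate 7 alone 0 rose and 0 fell. Dpm2 held 0 counts in all 8 libraries and was not tested. Whether its reads were lost to overlaps with other features was not examined.

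Of 15 basement membrane and matrix genes 0 rose and 1 fell, against 18.4% and 6.07% of coding genes, with a median of 0.08. Hspg2, perlecan, a proteoglycan that binds dystroglycan (chromosome 4, 137468769 to 137570630), averaged 1697 ± 164 CPM (SD, n = 5) in AAV9-Lmna and 2682 ± 573 CPM (SD, n = 3) in untreated hearts. Its log2 fold change was -0.66 (standard error 0.14, edgeR adjusted p = 0.00853), and -0.30 and not called after the correction (edgeR adjusted p = 0.216). Against untreated replicate 7 alone it was -0.87, or -0.56 with the correction. Hspg2 was called lower in 17 of 18 alternatives. The partner chains of laminin alpha 2, Lamb1, Lamb2 and Lamc1, had log2 fold changes of -0.01, 0.29 and -0.18, none of them called.

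Of 18 genes for integrin partners, costamere and membrane repair proteins 4 rose and 2 fell, against 18.4% and 6.07% of coding genes. Their median was 0.35. Trim72, a membrane repair protein of muscle, averaged 285 ± 44.8 CPM (SD, n = 5) in AAV9-Lmna and 149 ± 43.5 CPM (SD, n = 3) in untreated hearts, a log2 fold change of 0.93 (edgeR adjusted p = 0.0075). Cd151, a tetraspanin that binds laminin-binding integrins, rose by 0.69 on the log2 scale, and Actg1, cytoplasmic gamma-actin, by 0.58. Actg1 averaged 42.3 CPM in AAV9-Lmna and 28.4 CPM in untreated hearts, and its loss of reads to overlapping features was not examined. Without untreated replicate 8 Actg1 had 0.43 (edgeR adjusted p = 0.0604). Itga5, the alpha chain of a fibronectin receptor, averaged 68.6 ± 5.01 CPM (SD, n = 5) in AAV9-Lmna and 124 ± 34.5 CPM (SD, n = 3) in untreated hearts. It fell by 0.86 on the log2 scale (edgeR adjusted p = 0.00413) and was also called after the correction, at -0.99 (edgeR adjusted p = 0.00346). Trim72, Cd151 and Actg1 were not called after it, with 0.61, 0.34 and 0.21. Against untreated replicate 7 alone Trim72 had 0.53, Actg1 0.33 and Cd151 0.40, and Trim72 and Actg1 were not called. Itgb1, the beta chain that pairs with integrin alpha 7, had a log2 fold change of 0.35 (standard error 0.13) and was not called.

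**Figure D5:**
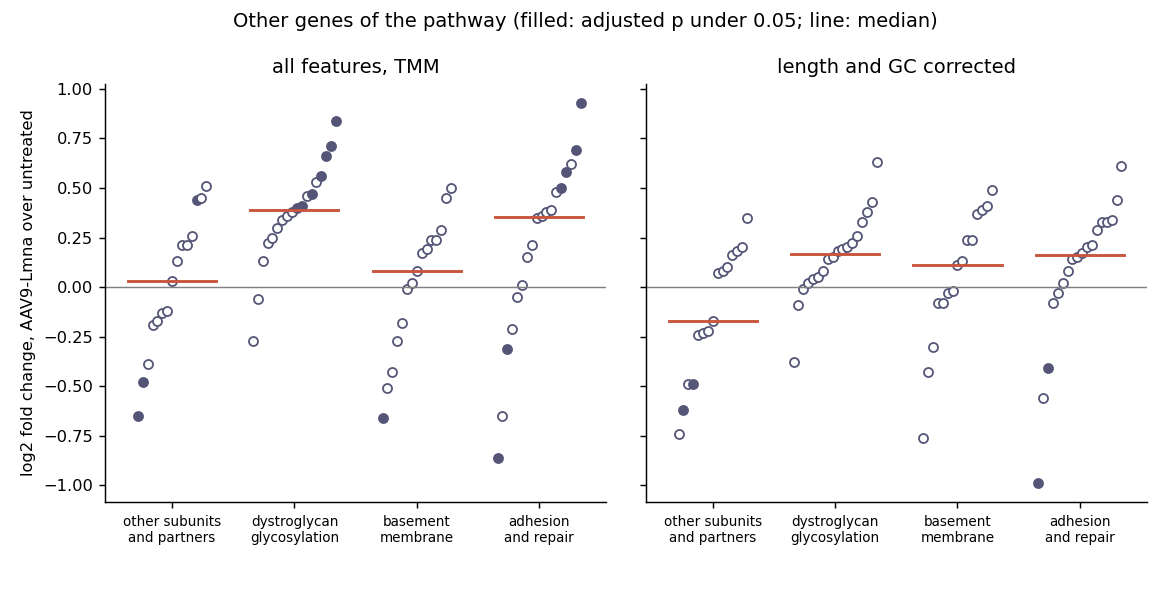
Log2 fold change of AAV9-Lmna over untreated hearts (y axis) for 66 other genes of the pathway in 4 lists, under all features (left) and after the length and GC correction (right), filled where the adjusted p is under 0.05, with the median of each list as a red line. The glycosylation list has a median of 0.39 on the left and 0.17 on the right, where none of its genes is called.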

How the data were processed

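RNA of hearts was sequenced, 1 library per sample, 5 AAV9-Lmna and 3 untreated. The authors deposited unnormalised counts, 1 whole number per gene and library, made without strand over 53465 Ensembl and 87774 NONCODE version 5 genes, per the names and summary lines of the deposited tables. Per the submitters' processing notes the tools were edgeR, limma, HTSeq and TopHat2 (no versions or roles) and the builds GRCm38 and mm10. Ambiguous reads made up 24.0% to 26.4% of reads in AAV9-Lmna and 21.0% to 24.9% in untreated libraries. The 5 summary lines of each table (outside features, ambiguous and multiply aligned reads) were kept out of library sizes. Reads that overlap more than 1 feature are not in any count. Overlaps of the 8 genes with NONCODE features were not examined.

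Features were filtered with edgeR's filterByExpr and fitted with edgeR 4.0.16 (R 4.3.3): TMM scaling, robust quasi-likelihood test, group as the only term, Benjamini-Hochberg adjustment over all 26717 features. The standard error is the absolute log2 fold change divided by the square root of F. CPM use TMM library sizes. The length and GC correction passed a loess curve (span 0.5) per library, on log2 length and then GC content of the longest transcript, to edgeR as offsets over Ensembl genes. It removes any difference that goes with length, technical or not. The alternatives also used DESeq2 1.42.0, limma-voom (limma 3.58.1), 1 surrogate variable (sva 3.50.0), RLE scaling, no filter, a filter of 1 CPM in at least 3 libraries, and each library left out. Single values were tested by enumerating the 56 splits of 8 libraries. The scripts were tested on simulated data.

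The members, lists and rules were chosen with earlier results of these data known. Named are the 8 members, up to 4 called genes per list with the largest change at a mean log2 CPM of at least 1, Lmna, and 3 profile neighbours of 4 members at a mean log2 CPM of at least 3. Others were named after their values were seen. Some genes of the lists are counted but not reported here by name. Of the 12 marker lists, those that bear on a result are given with it. The labels do not say that libraries came from different animals, so the spread behind the p-values is that of libraries and may be technical.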

Additional observations from a re-analysis of the deposited data

Results flagged for a closer look

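Utrn in AAV9-Lmna replicate 4, at 328 CPM, lay far from the other 4 AAV9-Lmna libraries, at 338 to 342 CPM, relative to the narrow range of the group. The log2 ratio of Itga7 over Dag1 in AAV9-Lmna replicate 1, at -0.71, lay far below the other 4, at -0.47 to -0.44. That library is also the one with 0.420 CPM of the 4 Y-linked genes, and without it the difference between the groups in this ratio was 1.29. In all 24 groups of 5 values were examined and 2 stood out, where chance flags about 1 in 20.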

How the results depend on the processing

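Dag1 was called lower in 18 of 18 alternatives, with log2 fold changes of -0.81 to -0.48, and Itga7 was called higher in 16 of 18. The exceptions were untreated replicate 7 as the only comparison, with 0.40 (edgeR adjusted p = 0.0806), and the same with the length and GC correction, an alternative chosen after seeing the data, with 0.28 (edgeR adjusted p = 0.24). The 18 include the fits with untreated replicate 7 alone, whose calls may rest on too small a spread. The cause of the changes below was not tested, except that fewer libraries or features enter some fits.

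Members called higher numbered 2 with DESeq2, with a surrogate variable and without untreated replicate 6, and 0 in the corrected comparison with replicate 7 alone. Members called lower numbered 2 with no filter, with Ensembl genes alone and without untreated replicate 7. Coding genes called higher made up 24.9% with DESeq2, 14.1% with a surrogate variable and 13.1% without untreated replicate 6. Coding genes called lower made up 5.17% with no filter, 8.73% with Ensembl genes alone and 7.68% without untreated replicate 7. Whether the members differ from coding genes in these fits was not tested. Against untreated replicate 7 alone the member called higher was Sgca. Of the other pathway genes 21 were higher with no filter, 4 with Ensembl genes alone, 0 after the correction, 5 against replicate 7 alone and 0 in that comparison after the correction. Lower were 8 with Ensembl genes alone and 10 with a surrogate variable. The shares called higher with no filter were 30.9% of these pathway genes and 17.9% of coding genes. The shares called lower with a surrogate variable were 15.2% of these pathway genes and 5.41% of coding genes. These differences in share were not tested. Of all features 1967 were called with Ensembl genes alone, 1183 after the correction, 4330 with a surrogate variable, 2143 against replicate 7 alone and 886 in that comparison after the correction, against 6858.

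Among log2 fold changes, Dmd had -0.28 and was called with no filter (edgeR adjusted p = 0.0268), and 0.16 against replicate 7 alone, or 0.49 with the correction. Utrn was called at -0.33 with Ensembl genes alone, and had 0.14 after the correction and 0.12 against replicate 7 alone with it. Sgca had -0.04 with Ensembl genes alone and -0.22 after the correction. It was called at 0.45 with a surrogate variable, and had 0.59 against replicate 7 alone. Sgcb was called at 0.21 by DESeq2 and had -0.02 with Ensembl genes alone and -0.05 after the correction. Sgcd had -0.00 with the CPM filter, -0.14 with Ensembl genes alone, -0.10 after the correction, -0.12 with a surrogate variable, -0.22 against replicate 7 alone and -0.29 with the correction. Lama2 had 0.11 after the correction. The log2 ratio of Sgca over Sgcd differed by -0.07 after the correction and by 0.82 against replicate 7 alone, and that of Utrn over Dmd by -0.31 against replicate 7 alone.

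With each library left out in turn, 1 to 2 members were higher and 1 to 2 lower, 11 to 23 other pathway genes higher and 4 to 10 lower, and 4216 to 10033 features called. The fewest features were called without AAV9-Lmna replicate 2 and the most without untreated replicate 7. The log2 fold changes ranged from -0.50 to -0.16 for Dmd, -0.22 to -0.04 for Utrn, -0.69 to -0.48 for Dag1, 0.02 to 0.41 for Sgca, 0.17 to 0.21 for Sgcb, -0.09 to 0.23 for Sgcd, -0.27 to 0.08 for Lama2 and 0.55 to 0.79 for Itga7. Differences in log2 ratio ranged from -0.09 to 0.41 for Utrn over Dmd, 1.10 to 1.38 for Itga7 over Dag1 and -0.20 to 0.51 for Sgca over Sgcd. Sgcd lay at -0.00 without AAV9-Lmna replicate 4 and at -0.09 without untreated replicate 6, and Lama2 at 0.02 without untreated replicate 7.

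No paired analysis was possible because the groups share no replicate number. The planned covariate of Xist was not run, since Xist had 0 counts in all 8 libraries. With 3 untreated libraries the exact test of a ratio cannot go below 0.0179.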
